A study of Mus musculus with 6 samples.

Results

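The motile cilium is a beating organelle whose axoneme, a ring of microtubule doublets around a central pair, is driven by outer and inner dynein arms. In the brain, motile cilia are carried mainly by ependymal cells, which line the ventricles beside the hippocampus. The choroid plexus epithelium, which makes cerebrospinal fluid, also carries cilia. The protein of Dnal1, called light chain 1, sits on an outer arm heavy chain and touches the microtubule, and human mutations in it are a known cause of primary ciliary dyskinesia. Its gene is described here beside the rest of the motile cilia and axonemal dynein genes.

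The members were the protein-coding genes whose symbols begin with Cfap, Dnah, Dnai, Dnal, Dnaaf or Rsph followed by a number or suffix, or with Spag6, Spag16 or Spag17, together with Foxj1, Mcidas, Hydin, Tekt1, Tekt2 and Tekt4. The rule found 73 genes among the 52550 of the count tables, of which 21819 were protein-coding. Each had a count in at least 1 library, and 72 passed the filter on low counts. Cfap97d1 did not, with 2 counts in TBI3 and none elsewhere. The family was defined by name, but Dnal1 was chosen by its level in these same libraries, so its difference between the groups is given as a description and it is left out of the tests.

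The samples were whole hippocampi of male C57BL / 6 mice, aged 8 to 10 weeks by the methods, with 3 mice and 3 libraries in each of 2 groups at 24 h. TBI mice received a controlled cortical impact, a piston blow to the exposed brain, through an opening over the right parietal bone. Sham mice had the surgery without the blow. The libraries are called Sham1 to Sham3 and TBI1 to TBI3 by their labels, and by the methods the hippocampus was dissected on both sides of the brain, without a statement of whether both sides entered a library.

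Total counts per library ran from 31630936 to 41771872, and edgeR's scaling factors from 0.970 to 1.025. Levels are in CPM, counts scaled to a common library size. Of 12 markers of hippocampal neurons, all were measured, and 10 had a log2 fold change below 0, with a median of −1.05. They summed to 1085, 851 and 848 CPM in Sham1 to Sham3 and to 626, 730 and 918 CPM in TBI1 to TBI3, so that the groups overlapped, and without Calb1, the most abundant and higher in TBI3, to 709 to 956 CPM in sham and 411 to 619 CPM in TBI. TBI1 stood apart in markers of the striatum, with 5510 CPM over 12 genes against 251 to 362 CPM in the other libraries. Choroid plexus markers varied within both groups, as given below. Fewer cells of a type and less RNA per cell cannot be told apart in such bulk tissue.

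Promoters of 60 of the 73 members were matched in RefSeq (GRCm38.p6), each from 250 bases before to 50 after the gene start. They are shown because ciliary genes are commonly driven by RFX factors, which bind the X-box, a pair of arms GTTNCC and GGNAAC. Those of Dnal1 (chr12:84114078-84114377, plus strand), Dnali1 (chr4:125065608-125065907, minus strand), Dnaic1 (chr4:41569544-41569843, plus strand), Dnah9 (chr11:66168502-66168801, minus strand) and Rsph9 (chr17:46144151-46144450, minus strand) stand for an outer arm light chain, an inner arm light chain, an intermediate chain, a heavy chain and a spoke head gene. They are written 5′ to 3′ along the gene, with either arm in capitals.
Dnal1: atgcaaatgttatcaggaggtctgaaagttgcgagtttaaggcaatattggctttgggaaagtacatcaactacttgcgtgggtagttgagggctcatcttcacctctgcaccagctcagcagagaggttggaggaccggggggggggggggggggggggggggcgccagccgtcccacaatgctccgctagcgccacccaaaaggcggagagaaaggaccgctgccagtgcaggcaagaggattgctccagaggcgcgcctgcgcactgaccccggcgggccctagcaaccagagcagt
Dnali1: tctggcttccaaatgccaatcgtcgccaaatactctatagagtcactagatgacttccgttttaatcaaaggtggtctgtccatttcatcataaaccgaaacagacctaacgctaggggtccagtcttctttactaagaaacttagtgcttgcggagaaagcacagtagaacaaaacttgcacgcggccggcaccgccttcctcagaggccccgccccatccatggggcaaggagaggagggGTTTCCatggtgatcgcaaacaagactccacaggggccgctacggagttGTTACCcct
Dnaic1: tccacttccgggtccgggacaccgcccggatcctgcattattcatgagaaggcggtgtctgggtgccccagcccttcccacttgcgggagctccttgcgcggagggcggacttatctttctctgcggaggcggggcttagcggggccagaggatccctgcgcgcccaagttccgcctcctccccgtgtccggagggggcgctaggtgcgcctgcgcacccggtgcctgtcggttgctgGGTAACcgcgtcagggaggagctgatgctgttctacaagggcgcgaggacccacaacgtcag
Dnah9: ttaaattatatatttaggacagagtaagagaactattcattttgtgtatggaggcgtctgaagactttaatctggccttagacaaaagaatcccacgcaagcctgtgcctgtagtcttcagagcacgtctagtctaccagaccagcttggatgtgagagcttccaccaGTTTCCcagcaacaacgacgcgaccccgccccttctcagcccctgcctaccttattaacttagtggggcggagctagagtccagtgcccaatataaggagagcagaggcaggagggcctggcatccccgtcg
Rsph9: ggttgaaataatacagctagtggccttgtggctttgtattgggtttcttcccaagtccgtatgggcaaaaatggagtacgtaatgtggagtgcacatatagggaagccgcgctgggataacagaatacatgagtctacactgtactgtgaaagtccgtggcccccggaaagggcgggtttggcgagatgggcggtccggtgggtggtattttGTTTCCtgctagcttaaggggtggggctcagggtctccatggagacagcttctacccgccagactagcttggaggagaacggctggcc
The Dnal1 window held neither arm, and the other 4 windows held 1 or 2. An arm on either strand was found in 46 of the 60 members with a promoter (76.7%), against 49.3% of 16478 protein-coding genes and 48.8% of all 27025 genes with a promoter. The median GC content was 56% in the members and 57% in protein-coding genes. GTTNCC followed by GGNAAC after 1 to 3 bases was found in 1 member, Cfap298 (1.67%), against 0.903% of all genes. The forkhead core TGTTTAC, a letter pattern of the class to which Foxj1 belongs, was found in 3 members (5%) against 4.05% of all genes. These are matches of letters and not measured sites.

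Dnal1 was abundant in 2 of the 6 libraries and low in the other 4. Its gene (ENSMUSG00000042523.12) spans 84114366 to 84147498 on chromosome 12 (GRCm38, plus strand), with 7 transcripts in the annotation. The counts were 5478 in Sham1, 626 in Sham2 and 5451 in Sham3. They were 722 in TBI1, 616 in TBI2 and 440 in TBI3. Sham2 therefore lay with the TBI libraries. After scaling, the level was 135, 15.6 and 142 CPM in Sham1 to Sham3, and it was 17.7, 19.5 and 12.4 CPM in TBI1 to TBI3, so that TBI1 and TBI2 were above Sham2 and the groups overlapped. The sham mean was 97.6 ± 71.1 CPM and the TBI mean 16.5 ± 3.70 CPM (SD, n = 3 mice each), which is a log2 ratio of −2.56.

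The spread of Dnal1 within sham was wider than the difference between the group means. Sham3 was 9.10 times Sham2, whereas the TBI libraries spanned 1.57 times and their mean was 1.06 times Sham2. Sham1 and Sham3 averaged 8.52 times the mean of the other 4 libraries. Without Sham2, the log2 ratio was −3.07.

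The level read as Dnal1 could include other transcripts. Pnma1, which encodes a neuronal paraneoplastic antigen, lies on the opposite strand and shares 384 exonic bases, or 5.53% of the Dnal1 exons. The strandedness of the libraries is not given in the sources used here. Pnma1 had 4.47, 6.03 and 3.36 CPM in Sham1 to Sham3 and 4.07, 3.26 and 2.36 CPM in TBI1 to TBI3, so that it was small beside Dnal1 in Sham1 and Sham3 but not in Sham2. The sum of both genes gave a log2 ratio of −2.37. Acot6, an acyl-CoA thioesterase gene and the nearest gene before Dnal1, had a log2 fold change of −0.21 (SE 0.26), and Elmsan1, the nearest after Pnma1, one of 0.05 (SE 0.16). Acot3 and Acot5, of the same enzyme family as Acot6, lie before it and were named after their values were seen. They stood at −0.95 (SE 0.45) and −0.89 (SE 0.34). In both, all TBI libraries lay below all sham libraries, as in 5.45% of all genes.

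**Figure D1:**
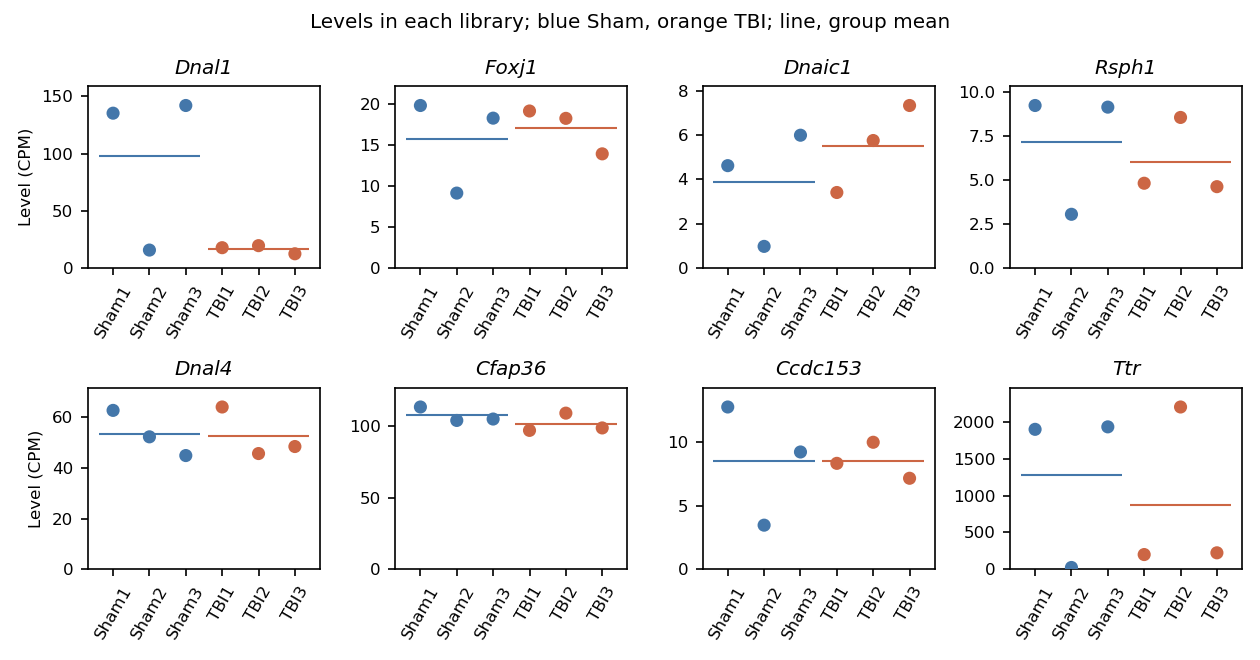
Level in CPM (y axis, from 0) in each of the 6 libraries (x axis) for 6 members, the ependymal marker Ccdc153 and the choroid plexus gene Ttr; points are libraries and lines are group means. Dnal1 is at 135 and 142 CPM in Sham1 and Sham3 and at 12.4 to 19.5 CPM elsewhere, whereas Ttr is high in Sham1, Sham3 and TBI2.

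Dnal1 was chosen from these data, so its place as the largest difference is no finding. The log2 fold changes of the other tested members ran from −0.96, of Dnah9 and Cfap77, to 1.23, of Rsph6a at a mean of 0.319 CPM. Calls followed the cut-offs in the study's methods, which ask for p below 0.05, an adjusted p below 0.1 and at least a 1.5-fold change either way. With them, edgeR's quasi-likelihood test with Benjamini-Hochberg adjustment called 0 of the 18795 genes (0.0%), and so no member. The adjusted p of the members was 0.982 to 0.998. An unadjusted p under 0.05 was met on the lower side by 400 genes (2.13%), and of the 71 members other than Dnal1 by 1, Rsph3a. On the higher side 406 genes met it (2.16%) and no member. DESeq2 with its defaults called 46 of 28289 genes (0.163%), of which 19 were lower (0.0672%), and called none of the members other than Dnal1, which was selected on this contrast and is not counted.

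Without Dnal1, 43 of 71 members had a log2 fold change below 0, and with it 44 of 72 (61.1%), where 48.6% of all genes tested did. Of the 13 members at a mean of 10 CPM or more, Dnal1 included, 11 were below 0 with a median of −0.25, where 50.3% of all genes of that level were, and of the 59 members under it 33 were. The median over the 72 was −0.08, against 0.01 over all genes. All 3 TBI libraries lay below all 3 sham libraries in 5 members, Dnaaf1, Dnaaf2, Rsph3a, Rsph9 and Tekt1, where 5.45% of all genes did so, and above them in none, where 4.77% did. The median moved to −0.0013 without Sham1 and to −0.0054 without Sham3.

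Leaving Dnal1 out, the summed level of the members was 567, 475 and 519 CPM in Sham1 to Sham3 and 464, 519 and 447 CPM in TBI1 to TBI3, so that the groups overlapped. Dnal1 alone made up 19.3% of the members' sum in Sham1 and 21.5% in Sham3, but 3.18% in Sham2 and 2.69% to 3.67% in the TBI libraries.

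Levels between members were compared per kilobase of exon. Cfap36, a broadly expressed gene whose protein binds the small GTPase ARL3, was the highest at a mean of 38.0 CPM per kb over the 6 libraries, followed by the light chain gene Dnal4 at 22.2 and Cfap298, a gene needed for arm assembly, at 20.8 CPM per kb. Dnal1 stood at 8.22 CPM per kb, a mean carried by Sham1 and Sham3 at 19.5 and 20.5 CPM per kb. It was above every intermediate and heavy chain gene in 5 libraries, and in TBI3 it was below Dnaic1, at 1.78 against 2.64 CPM per kb. The outer arm heavy chains had 0.0175 to 0.719 CPM per kb and the other heavy chains 0.0605 to 0.440 CPM per kb.

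**Figure D2:**
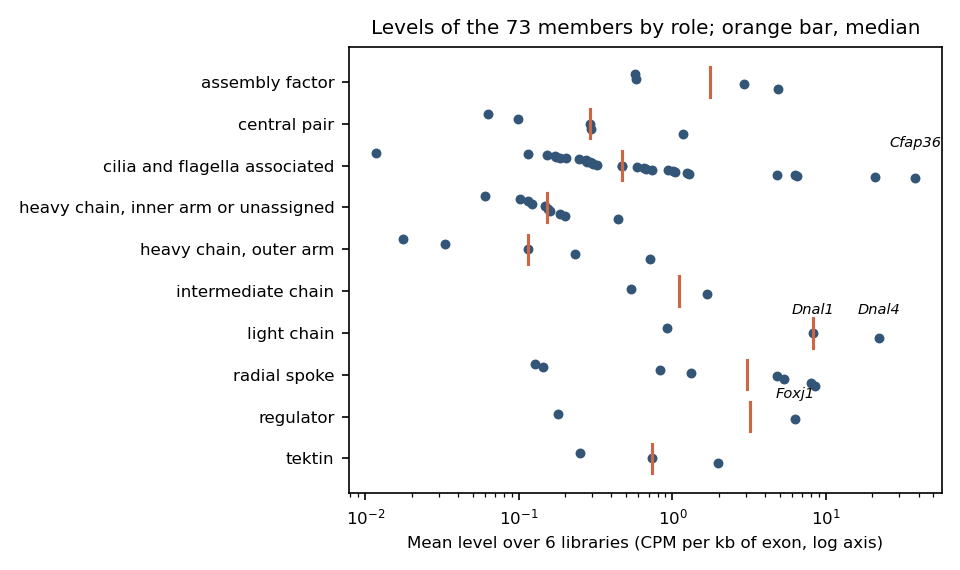
Mean level over the 6 libraries in CPM per kb of exon (x axis, log scale) of the 73 members, grouped by role (y axis); points are genes and orange bars are the median of each role. Dnal1, at a mean of 8.22 CPM per kb that Sham1 and Sham3 carry, lies above the means of all heavy and intermediate chain genes.

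Among the regulators, Foxj1, the transcription factor that drives the motile cilia programme, was low in Sham2 alone. It had 19.8, 9.12 and 18.3 CPM in Sham1 to Sham3 and 19.1, 18.2 and 13.9 CPM in TBI1 to TBI3. The group means were 15.7 ± 5.77 CPM (SD, n = 3) and 17.1 ± 2.79 CPM (SD, n = 3), with a log2 fold change of 0.12 (SE 0.31). The library in which Foxj1 was lowest was thus a sham library, and TBI2 held as much of it as Sham3. Mcidas, which starts the multiciliated programme in progenitors, averaged 0.359 ± 0.171 CPM over sham mice and 0.499 ± 0.360 CPM over TBI mice (SD, n = 3), at the lower end of the members.

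Among the dynein light chains, Dnal1 stood apart from both others. Dnal4, a light chain that is also expressed outside ciliated cells, had 62.7, 52.3 and 44.9 CPM in Sham1 to Sham3 and 64.1, 45.7 and 48.5 CPM in TBI1 to TBI3. Its log2 fold change was −0.02 (SE 0.19), and the 2 groups covered nearly the same range. Dnali1, of the inner arm, had 2.44, 1.42 and 2.14 CPM in sham and 1.54, 2.31 and 1.85 CPM in TBI, with a log2 fold change of −0.07 (SE 0.34). Dnali1 and Dnal1 shared the order of the libraries in so far as Sham1, Sham3 and TBI2 were the highest, but its whole range was within 2-fold.

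The intermediate chains, which anchor the outer arm, were lowest in Sham2 and not in TBI. Dnaic1 had 4.62, 0.972 and 5.99 CPM in Sham1 to Sham3 and 3.41, 5.75 and 7.33 CPM in TBI1 to TBI3. The log2 fold change was 0.51 (SE 0.64), and without Sham2 it was 0.05. Dnaic2 had 2.44, 1.02 and 3.46 CPM in sham and 2.55, 2.18 and 2.98 CPM in TBI, with a log2 fold change of 0.15 (SE 0.47).

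The outer arm heavy chains are the motors on which light chain 1 sits. Dnah9 had the lowest fold change of the 15 heavy chains, at −0.96 (SE 0.44), or −0.64 without TBI1 and −1.47 without TBI2, with 20.5, 11.8 and 13.1 CPM in sham and 3.97, 12.4 and 7.05 CPM in TBI. The groups overlapped through TBI2, and Sham2 was near Sham3. Dnah5, the motor to which light chain 1 is tied, had 3.24, 2.27 and 4.92 CPM in sham and 2.30, 5.94 and 3.18 CPM in TBI, with a log2 fold change of 0.13 (SE 0.46). Dnah11 stood at 0.21 (SE 0.58) and Dnah8, known mainly from sperm, at 0.70 (SE 0.56) below a mean of 1 CPM.

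Of the 10 other heavy chains, 6 had a log2 fold change below 0. Dnah1, an inner arm motor and the most abundant of them, had −0.10 (SE 0.46) and Dnah2, also of the inner arm, −0.27 (SE 0.28). Dnah7b had 4.20, 0.474 and 4.66 CPM in sham and 1.004, 2.94 and 5.90 CPM in TBI, with a log2 fold change of 0.08 (SE 0.90). Its copies Dnah7a and Dnah7c are similar enough for reads to be split between them, and the 3 genes summed gave 7.24 ± 2.62 CPM for sham and 6.86 ± 1.97 CPM for TBI (SD, n = 3), a log2 ratio of −0.08. Dnah14 stood at 0.82 (SE 0.68).

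The radial spokes link the doublets to the central pair, and 6 of their 8 genes had a log2 fold change below 0. Rsph3a, a stalk gene, had 26.0, 37.1 and 22.9 CPM in Sham1 to Sham3 and 18.2, 22.7 and 16.6 CPM in TBI1 to TBI3, a log2 fold change of −0.58 (SE 0.23), which was −0.35 without Sham2. The unadjusted p was 0.0408 and the adjusted p 0.982 by edgeR's quasi-likelihood test. Here Sham2 was the highest library, whereas for Dnal1 it was the lowest of the sham libraries. Summed with its near copy Rsph3b, whose own value was −0.32 (SE 0.22) and −0.083 without Sham2, it reached 47.1 ± 12.4 CPM for sham and 33.9 ± 3.56 CPM for TBI (SD, n = 3), a log2 ratio of −0.47. Rsph9, of the spoke head, had 20.7, 15.2 and 13.8 CPM in sham and 7.35, 13.7 and 10.6 CPM in TBI, with −0.65 (SE 0.28). Its lowest sham and highest TBI library were nearly equal.

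The central pair genes Spag6l, Spag16 and Hydin had log2 fold changes of −0.09 (SE 0.36), −0.03 (SE 0.95) and 0.33 (SE 0.50). Spag16 had 3.19, 0.0997 and 2.66 CPM in Sham1 to Sham3, against 1.60 to 2.15 CPM in TBI. The wide error of Spag16 came with the single low library, Sham2, which held 4 counts. Spag6 and Spag6l, which are close copies, summed to a log2 ratio of −0.12.

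The assembly factors fold and assemble dynein arms in the cytoplasm. Dnaaf2 had 17.4, 19.9 and 16.8 CPM in sham and 15.9, 13.1 and 16.5 CPM in TBI, a log2 fold change of −0.25 (SE 0.17). Dnaaf1 stood at −0.37 (SE 0.31), Dnaaf5 at −0.25 (SE 0.23) and Dnaaf3 at 0.91 (SE 0.56) on a mean of 1.30 CPM. Sham2 was the lowest sham library in none of these 4 genes. Transcripts on the opposite strand overlap 32.7% of the Dnaaf2 exons and 20.7% of those of Dnaaf1, and same-strand genes overlap 22.3% and 20.6% of those of Dnaaf2.

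The tektins form filaments in the doublet wall. Tekt1 had 4.30, 3.09 and 4.12 CPM in sham and 2.57, 3.03 and 2.19 CPM in TBI, with −0.56 (SE 0.27). Tekt4 stood at 0.85 (SE 0.94) and Tekt2 at 0.49 (SE 1.24), both under a mean of 2 CPM. Of the 30 tested Cfap genes, 19 had a log2 fold change below 0, and the 3 most abundant, Cfap36, Cfap97 and Cfap298, stood at −0.08 (SE 0.11), 0.20 (SE 0.17) and −0.13 (SE 0.15). A transcript on the opposite strand overlaps 44.2% of the Cfap298 exons. Cfap99 had the highest value of the Cfap genes, 1.17 (SE 0.93), on a mean of 0.582 CPM.

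Sham2 was low for much of the family as well as for Dnal1, which prompted a look at single libraries chosen after the values had been seen. It was the lowest sham library in 43 of the 72 tested members, where it was so in 38.5% of all genes. The median difference of Sham2 from the mean of Sham1 and Sham3 was −0.49 on the log2 scale over the members, against 0.006 over all genes. The median dip was −0.67 over the 59 members under a mean of 10 CPM and −0.07 over the 13 members at or above it. The 13 included Dnal1 at −3.15 and Foxj1 at −1.06. Both classes of all genes stood at 0.006, and a dependence on level was not tested. Members with an X-box arm had a median dip of −0.50 and members without it one of −0.41.

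TBI2 was high in the same way. It was the highest TBI library in 39 members, against 31.2% of all genes, and Sham1, Sham3 and TBI2 were the 3 highest libraries in 15 members, against 6.53%. These 15 were Dnal1, Dnah5, Dnah7a, Dnah9, Dnali1, Spag16, Rsph1, Rsph4a, Cfap36, Cfap43, Cfap52, Cfap54, Cfap65, Cfap69 and Cfap206. The order was not particular to the family. It was found in 6 of 12 hippocampal neuron markers and, in lists described below, 8 of 20 ependymal markers and 3 of 15 cytoplasmic dynein genes. It was found in 2 of 15 docking genes, 2 of 25 intraflagellar transport genes, 2 of 13 primary cilium genes and 1 of 10 other preassembly genes. The median over members of the log2 level, centred on each gene's mean, was 0.26, −0.31 and 0.30 for Sham1 to Sham3, then −0.09, 0.23 and −0.08 for TBI1 to TBI3. The libraries of each group thus lay on both sides of 0.

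**Figure D3:**
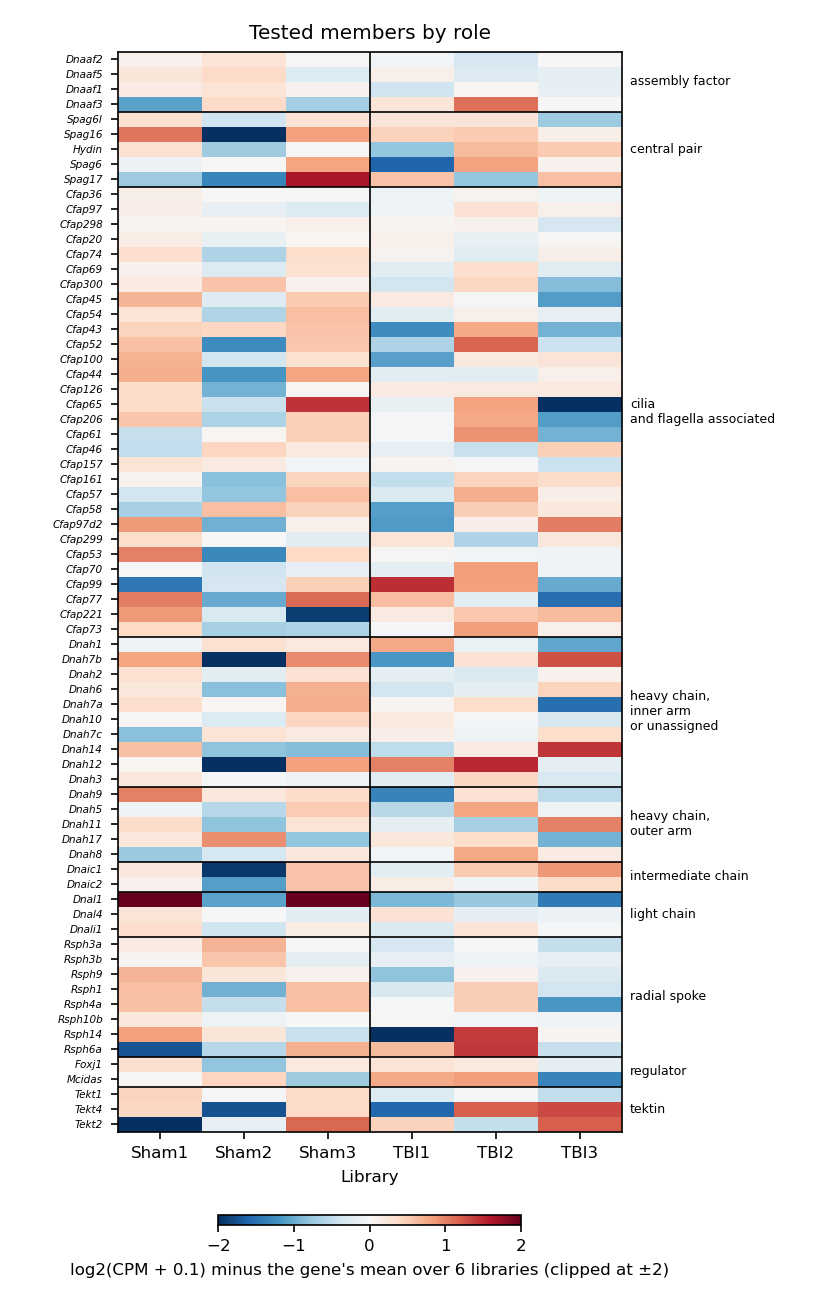
Level of each of the 72 tested members (rows, by role and by falling mean level within a role) in each library (columns), as log2(CPM + 0.1) minus the gene's mean over the 6 libraries, clipped at 2 in either direction. The Sham2 column is blue in many rows of low level, and the Dnal1 row is red in Sham1 and Sham3 alone.

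Dnal1 shared the dip in Sham2 with ciliary genes of lower mean level, and its level in TBI2 stayed close to that of Sham2. Besides Dnal1, 22 members were at least 2-fold lower in Sham2 than in the mean of Sham1 and Sham3, among them Foxj1, Dnaic1, Dnaic2, Spag16, Rsph1, Rsph4a and Dnah7b. The dip of Dnal1, −3.15 on the log2 scale, was exceeded by that of Dnah12, which had no count in Sham2, and of Spag16, which had 4. Their means were 1.21 and 1.96 CPM, against 57.1 CPM for Dnal1. Of 4225 genes at the mean level of Dnal1 or above, 7 (0.166%), Dnal1 among them, had as wide a ratio of highest to lowest sham library. In TBI2 all 22 were above their Sham2 level, and 16 by at least 2-fold. Since these genes were picked for a low Sham2, this is no finding about them, and of the 1571 genes picked in the same way from all genes tested, 95.4% and 80.2% were so. The TBI2 level of Dnal1, a gene chosen for its low TBI values, was 1.25 times its Sham2 level.

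Rsph1, a spoke head gene, is an example of the 15 members with Sham1, Sham3 and TBI2 highest, with 9.21, 3.04 and 9.12 CPM in Sham1 to Sham3 and 4.80, 8.53 and 4.61 CPM in TBI1 to TBI3. Rsph4a, also of the spoke head, had 6.64, 3.14 and 6.72 CPM in sham and 4.29, 6.26 and 1.91 CPM in TBI. In both, TBI2 returned to near the level of Sham1 and Sham3. The members whose centred log2 levels lay nearest to those of Dnal1 over the 6 libraries, by root mean square difference, were Cfap77 at 0.872, Cfap44 at 1.03, Cfap45 at 1.06, Cfap53 at 1.08 and Rsph4a at 1.09. Cfap77, the nearest, had 0.815, 0.125 and 0.886 CPM in sham and 0.588, 0.284 and 0.0562 CPM in TBI.

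**Figure D4:**
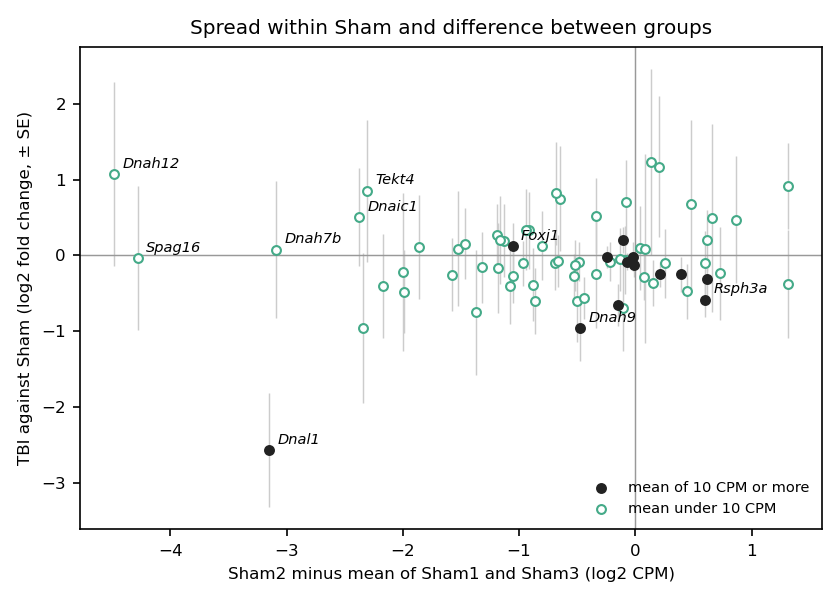
For each of the 72 tested members, the log2 fold change of TBI against sham with its SE (y axis) against the difference of Sham2 from the mean of Sham1 and Sham3 in log2 CPM (x axis); black points have a mean of 10 CPM or more. Dnal1 lies at −3.15 and −2.56, while Spag16, Dnah7b and Dnaic1 lie far to the left with a fold change near or above 0. Cfap77, at −2.35, and Cfap53, at −2.17, are also far to the left and have fold changes of −0.96 and −0.40.

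Most ependymal genes outside the family were low in Sham2 and did not separate the groups. Of 20 ependymal markers, all of them tested, Sham2 was the lowest sham library in 18, with a median dip of −1.23 on the log2 scale. A log2 fold change below 0 was found in 9 of the 20, and the median was 0.0067. Ccdc153, a marker of ependymal cells, had 12.7, 3.46 and 9.20 CPM in Sham1 to Sham3 and 8.30, 9.95 and 7.14 CPM in TBI1 to TBI3, a log2 fold change of 0.00 (SE 0.45). Rarres2, the chemerin gene, had 21.0, 11.8 and 22.5 CPM in sham and 20.4 to 22.4 CPM in TBI, with 0.22 (SE 0.25). In both genes Sham2 was the lowest library, and the TBI libraries lay within or near the range of Sham1 and Sham3. Other markers, named after their values were seen, had an order closer to that of Dnal1. Mia had 4.35, 0.498 and 4.90 CPM in Sham1 to Sham3 and 1.25, 2.02 and 1.99 CPM in TBI1 to TBI3, and Pifo and Nme9 stood at −0.95 (SE 0.50) and −0.90 (SE 0.91). Sham1 and Sham3 were the 2 highest libraries in 8 of the 20 markers and in 15 of the 72 members, Dnal1 among them, where they were so in 6.34% of all genes. The most abundant of the 20, Tm4sf1, which endothelial cells also express, had 147 CPM in Sham2 and 14.4 to 27.9 CPM elsewhere. Without it, the markers summed to 79.9, 32.5 and 76.3 CPM in Sham1 to Sham3 and 59.9, 69.9 and 62.2 CPM in TBI1 to TBI3.

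Choroid plexus markers moved with the family by library. The 15 markers summed to 2962, 148 and 3197 CPM in Sham1 to Sham3 and 515, 3560 and 584 CPM in TBI1 to TBI3. Sham1, Sham3 and TBI2 were the 3 highest libraries in 15 of the 15. Ttr, the transthyretin gene and the most abundant of them, had 1896, 26.3 and 1930 CPM in sham and 201, 2199 and 225 CPM in TBI. Enpp2, the autotaxin gene, and Kl, the klotho gene, had the same 3 libraries highest. In Sham2, TBI1 and TBI3 the markers were lower but not absent as a sum. The part of the choroid plexus in the levels of the ciliary members was not tested. In TBI2, where these markers were at their highest, Dnal1 was at 19.5 CPM.

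TBI1, the library with striatal markers, held no extreme value of Dnal1. Ppp1r1b, which encodes DARPP-32, was at 1788 CPM in TBI1 and 81.0 to 149 CPM elsewhere, and Penk, the proenkephalin gene, was at 1029 CPM against 18.4 to 53.1 CPM. The log2 ratio of Dnal1 without TBI1 was −2.62. Among the hippocampal neuron markers, 10 of 12 lower as given above, Neurod6 was lowest in TBI1 at 29.3 CPM. The 2 with a positive log2 fold change were Calb1, at 493 CPM in TBI3 and 111 to 215 CPM elsewhere, and Wfs1, highest in TBI1 at 276 CPM. The part of either in the members' values was not tested.

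Genes that act with the family were described in the same way, none passing the thresholds by edgeR. Of 11 tested regulators of multiciliation, 9 had a log2 fold change below 0, where 48.6% of all genes did, and 3 reached an unadjusted p under 0.05 on the lower side, where 2.13% did. These were Rfx3, an X-box factor, at −0.59 (SE 0.23), and, named after their values were seen, the kinase gene Nek10 at −0.87 (SE 0.30) and Gmnc, which acts before Mcidas, at −1.44 (SE 0.54). Rfx3 had 75.3, 52.7 and 47.8 CPM in Sham1 to Sham3 and 36.2, 48.3 and 32.7 CPM in TBI1 to TBI3, so that the groups overlapped slightly. Gmnc had 2.02, 1.35 and 1.46 CPM in sham and 0.294, 1.01 and 0.478 CPM in TBI, with no overlap. Of the 11, all TBI libraries lay below all sham libraries in 2, where 5.45% of all genes did so. They lay above them in 1, where 4.77% did. That gene was Myb, also named after its values were seen, at 0.91 (SE 0.46). Pcm1, a centriolar satellite gene, and E2f4, a partner of Mcidas, stood at −0.07 and −0.0010 on the log2 scale. Sham2 was the lowest sham library in 6 of the 11, and Sham1, Sham3 and TBI2 were the 3 highest in none.

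Docking, ruler and nexin-dynein genes, which fix and space the arms on the doublet, shared the dip in Sham2 and not the difference of Dnal1. Sham2 was the lowest sham library in 11 of 15, with a median dip of −0.67, and the median log2 fold change was −0.01. The most abundant of them, Tcte1, Gas8 and Ccdc39, stood at −0.03, −0.13 and −0.08. The other preassembly genes, led by Ruvbl1, Ruvbl2 and Pih1d1, had a median dip of −0.02 and a median log2 fold change of 0.0041 over 10 tested genes. Of those 10, 1 (Spag1) reached an unadjusted p under 0.05, on the higher side, at 0.54 (SE 0.21), where 2.16% of all genes did.

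Genes of cilia in general and of other dyneins had median log2 fold changes near 0, though single genes varied widely between libraries. Of 25 intraflagellar transport genes, which build all cilia, Sham2 was the lowest sham library in 15 and the median dip was −0.18, the median log2 fold change was 0.01, and none reached an unadjusted p under 0.05. Kif3a and Kif3b, motor subunits of that transport, and Ift20 stood at −0.06, −0.24 and 0.13. The 13 genes of the neuronal primary cilium, which does not beat, had a median of 0.04. Adcy3 stood at 0.04, Pkd2 at −0.09 and Gpr161 at −0.83, with 10.9 CPM in TBI1 and 73.4 CPM in Sham3, and at an unadjusted p under 0.05 there was 1 gene on each side, Sstr3 at −0.97 (SE 0.30) and Bbs2 at 0.42 (SE 0.17). The 15 genes of cytoplasmic dynein, which carries cargo along cell microtubules, also had a median of 0.04, with Sham2 the lowest sham library in 9. Pafah1b1 stood at −0.09, Dynll2 at 0.21 and Dync1h1 at 0.07, and 1 gene, Dynlt1b, was under that p on the higher side at 0.58 (SE 0.19). Of all genes, 2.13% were under that p on the lower side and 2.16% on the higher.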

How the data were processed

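Hippocampal RNA of 3 sham and 3 TBI mice was sequenced at 24 h, with 1 library per mouse. Groups were taken from the sample labels. Reads were checked with FastQC, aligned to GRCm38 with HISAT2 and quantified with StringTie by the authors. The deposited values are estimated counts, whole and not normalized by the authors. The versions of these tools, the annotation release, strandedness and the way in which coverage became counts are not given in the sources used here. The value 4 occurred 5109 times and the value 3 occurred 2325 times, so a count is not a single read, and no counting interval was computed.

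GENCODE vM21 gave symbols, coordinates and exons for 52403 of 52550 identifiers, leaving 147 without. In R 4.3.3, edgeR 4.0.16 was used (filterByExpr by group, TMM factors, quasi-likelihood test, limma 3.58.1, Benjamini-Hochberg over 18795 genes), which was tested on simulated data. A positive log2 fold change means a higher level in TBI, and SEs were derived from the fold change and its F statistic. Dips use log2 CPM with a prior count of 2. The smallest p of an exact permutation of 3 against 3 mice is 0.1. Alternatives were DESeq2 1.42.0, RLE scaling, 2 filters on low counts, no fold threshold, each library left out, the replicate number as a block, library totals, the sum with the overlapping gene and the members without near-identical copies.

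Named were Dnal1, the regulators, the 3 most abundant members of each role, the 5 members with the smallest p in each direction, members at an unadjusted p under 0.05, genes that overlap or neighbour Dnal1, the 5 genes nearest to its profile and to its mirror image, and the 3 most abundant genes of each of 10 lists, of which 1 is not reported here. Members used to illustrate the library pattern were named after their values were seen. The members and lists were chosen with earlier results of these data known.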

Additional observations from a re-analysis of the deposited data

How the results depend on the processing

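DESeq2 with its defaults called 46 genes where edgeR called 0, and edgeR called 0 to 1 gene with a library left out, the 1 without TBI1. The members below 0 numbered 36 to 50 of 72, fewest without Sham1 or Sham3 and most without Sham2, and their median ran from −0.16 without Sham2 to −0.0013 without Sham1. For Dnal1 the log2 ratio ran from −3.07 without Sham2 to −2.19 without Sham3. With the replicate block, edgeR called 0 genes, 45 members were below 0 and their median was −0.08. The block turned the sign of Spag16 (0.55), E2f4 (0.02) and Wfs1 (−0.036). Samples with the same number correlated at −0.0996, −0.07 and 0.153 in their deviations, and those with unlike numbers at −0.182 to 0.21. With so few libraries, these values cannot show whether the numbers pair the mice. Ccdc153 turned to −0.0083 with DESeq2, −0.0022 with RLE scaling and −0.0027 with the filter of 1 count in any library, and E2f4 turned to 0.0060 with the filter of 10 counts in every library. Of 721 values of 66 named genes under the alternatives, 665 kept their sign and 56, in 29 genes, did not. Over fits with a library left out, these log2 fold changes crossed 0, each given as its range with the omitted libraries that turned it: Spag6l −0.29 to 0.16 (Sham1, Sham3, TBI3), Spag16 −0.59 to 0.49 (Sham1, Sham3, TBI3), Dnah1 −0.68 to 0.24 (TBI3), Dnah7b −0.67 to 0.51 (Sham2, TBI3), Dnah5 −0.35 to 0.46 (Sham2, TBI2), Dnah11 −0.47 to 0.51 (Sham2, TBI3), Dnaic2 −0.20 to 0.56 (Sham2), Dnal4 −0.18 to 0.13 (Sham1, TBI2, TBI3), Dnali1 −0.27 to 0.10 (Sham1, TBI1), Foxj1 −0.16 to 0.33 (Sham2), Tekt2 −0.092 to 1.87 (Sham1, TBI3), Tm4sf1 −1.84 to 0.62 (Sham2), Rarres2 −0.020 to 0.38 (Sham2), Ccdc153 −0.37 to 0.42 (Sham2, TBI2), E2f4 −0.13 to 0.20 (Sham2, TBI1), Tcte1 −0.19 to 0.21 (Sham3, TBI1), Gas8 −0.24 to 0.095 (Sham2), Ccdc39 −0.26 to 0.023 (TBI3), Ruvbl1 −0.19 to 0.013 (Sham2, TBI3), Ruvbl2 −0.085 to 0.14 (TBI1), Pih1d1 −0.30 to 0.052 (Sham2), Kif3a −0.17 to 0.0043 (TBI1), Ift20 −0.0061 to 0.24 (Sham2), Adcy3 −0.13 to 0.19 (Sham1, TBI1), Pkd2 −0.16 to 0.016 (Sham2), Enpp2 −1.21 to 0.24 (Sham1, Sham3, TBI1, TBI3), Wfs1 −0.57 to 0.58 (TBI1), Acot6 −0.41 to 0.069 (Sham1), Elmsan1 −0.074 to 0.14 (Sham3, TBI2). The other alternatives kept the direction of the Dnal1 ratio, the members' count and the median. Without a change of sign, Dnah14 moved from 0.82 to 0.04 without TBI3 and 1.52 without Sham1, Cfap99 from 1.17 to 0.51 without TBI1 and 1.92 without Sham3, and Dnaaf3 from 0.91 to 1.53 without Sham2 and 0.49 without TBI2. Ttr moved to −2.60, Kl to −2.15, Gpr161 to −1.46 and Neurod6 to −1.74 without TBI2, Calb1 to 0.26 without TBI3, Penk to 0.07 and Ppp1r1b to 0.34 without TBI1, and Penk to 4.15 without Sham2.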

Other observations

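Outside the family, the genes whose centred log2 levels lay nearest to those of Dnal1 over the 6 libraries, by root mean square difference, were Gm26984 (0.590), the myosin heavy chain gene Myh8 (0.720), D830030K20Rik (0.744), Gm33027 (0.757) and Sln, the sarcolipin gene (0.757). They were far less abundant than Dnal1. Myh8 had 58, 12 and 44 counts in Sham1 to Sham3 and 12, 22 and 4 counts in TBI1 to TBI3. Sln had 58, 13 and 64 counts in sham and 16, 28 and 13 counts in TBI. Nearest to the mirror image of Dnal1 were Gm20535 (0.357), Hcst (0.396), 4930404I05Rik (0.403), Phex (0.439) and Gm765 (0.446). The lncRNA gene 4930404I05Rik, the most abundant of them, had 49, 253 and 39 counts in Sham1 to Sham3 and 238, 145 and 221 counts in TBI1 to TBI3. The genes were ranked by their likeness to Dnal1 in these libraries, and no test was made.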
